A study of Caenorhabditis elegans with 146 samples.

Results

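C-type lectin (clec) genes are described here along the hermaphrodite gonad of *C. elegans*, in growing oocytes and in the zygote. Members were taken by name, as genes with a WormBase symbol of clec- and a number, and were kept if their TPM, a level scaled for transcript length and library size, was at least 1 in 50% or more of the libraries of any stage. The count table held 240 such gene IDs under 237 symbols. TPM values were given for 237 of the IDs, of which 19 passed. A TPM of 1 was reached in some library by 108 of them, members included, and by 129 in none, and 73 of these were at 0 in every library. The passing share was 8.02% for clec genes, against 18.7% of all 46271 genes with TPM (8636 genes). Detection defined the members and was not tested.

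A C-type lectin domain is a protein fold that in many members binds sugar chains, often with the help of calcium, and the worm genome encodes a very large family of proteins with this fold. Many of its members are known from the intestine and from responses to bacteria. Others work outside immunity, among them *clec-87* and *clec-88*, described in the worm as core proteins that carry chondroitin sugar chains. Chondroitin proteoglycans such as CPG-1 and CPG-2 build a layer of the eggshell after fertilization, and their mRNAs are made in the growing oocyte.

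The study cut gonads of well-fed gravid adults of strain AZ212, which carries a germline pie-1::H2B::GFP transgene in every group, and sequenced each piece as its own library. From distal to proximal, the stages were S1 (mitotic region and transition zone, 19 libraries), S2 (pachytene, 17), S3 (diplotene loop, 17), S4 (diakinesis, 11), the -3 (6), -2 (13) and -1 (15) oocytes, and the P0 zygote (6), taken when its pronuclei had met. These 104 libraries, of 135 deposited for these stages, are those that the quality table marks as used. Sheath cells came along with segments and oocytes, sperm could be caught during dissection, and 1 worm often gave several stages, whereas zygotes lay free in the cut animal.

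The libraries held 1273040 to 73449925 counted reads (median 3120026), with 82 libraries in batch A (median 2859936) and 22 in batch B (median 14681432). Germline genes fixed as markers were present in every stage, with *glh-1* at stage medians of 38.99 (P0) to 163.7 (S1) TPM. From S1 to the -1 oocyte, the median of *glh-1* fell to 43.33, that of *pgl-1* went from 68.5 to 66.69 and that of *gld-1* from 81.21 to 113.4. The medians of *oma-1*, *oma-2*, *puf-5*, *cpg-1*, *cpg-2* and *rme-2* rose from S1 to S4. In -3 oocytes *cpg-2* (6976.6) and *cpg-1* (3335.1) had the highest medians of these markers. Summed TPM of the 9 germline and oocyte markers had stage medians of 831.2 (S1), 2641.1 (S2), 8892.3 (S3), 13097 (S4), 16506 (-3), 14899 (-2), 11209 (-1) and 6481.2 (P0). Summed TPM of 13 gonadal sheath markers had stage medians of 179.5 (S1), 2112.3 (S2), 11019 (S3), 22113 (S4), 24662 (-3), 41520 (-2), 30188 (-1) and 33.26 (P0). In bulk pieces of this kind, fewer cells of a type and less RNA per cell cannot be told apart. Replicates are pieces from different worms by their labels, and the p-values measure the spread between these libraries. The 2 batch B zygotes, however, carry 1 worm name and an unknown stage in the quality table, so that they may come from 1 animal, and the comparison of P0 with -1 oocytes counts them as separate.

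The 19 members were *clec-12*, *clec-47*, *clec-48*, *clec-50*, *clec-63*, *clec-85*, *clec-87*, *clec-88*, *clec-90*, *clec-91*, *clec-146*, *clec-147*, *clec-149*, *clec-190*, *clec-196*, *clec-209*, *clec-222*, *clec-223* and *clec-266*. Chromosome V held 6 of them, I and II 4 each, IV 3, and III and X 1 each. *clec-222* and *clec-223* lie next to each other on V on the same strand, 680 bp apart, and no other members were neighbors. The members just inside the rule were *clec-47* and *clec-48* (50% of P0 libraries), *clec-50* (52.63% of S1), *clec-146* (52.94% of S3) and *clec-209* (53.33% of -1 oocytes). Just outside it were *clec-264* (47.06% of S3 libraries), *clec-205* (45.45% of S4), *clec-104* and *clec-126* (both 41.18% of S3).

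**Figure D1:**
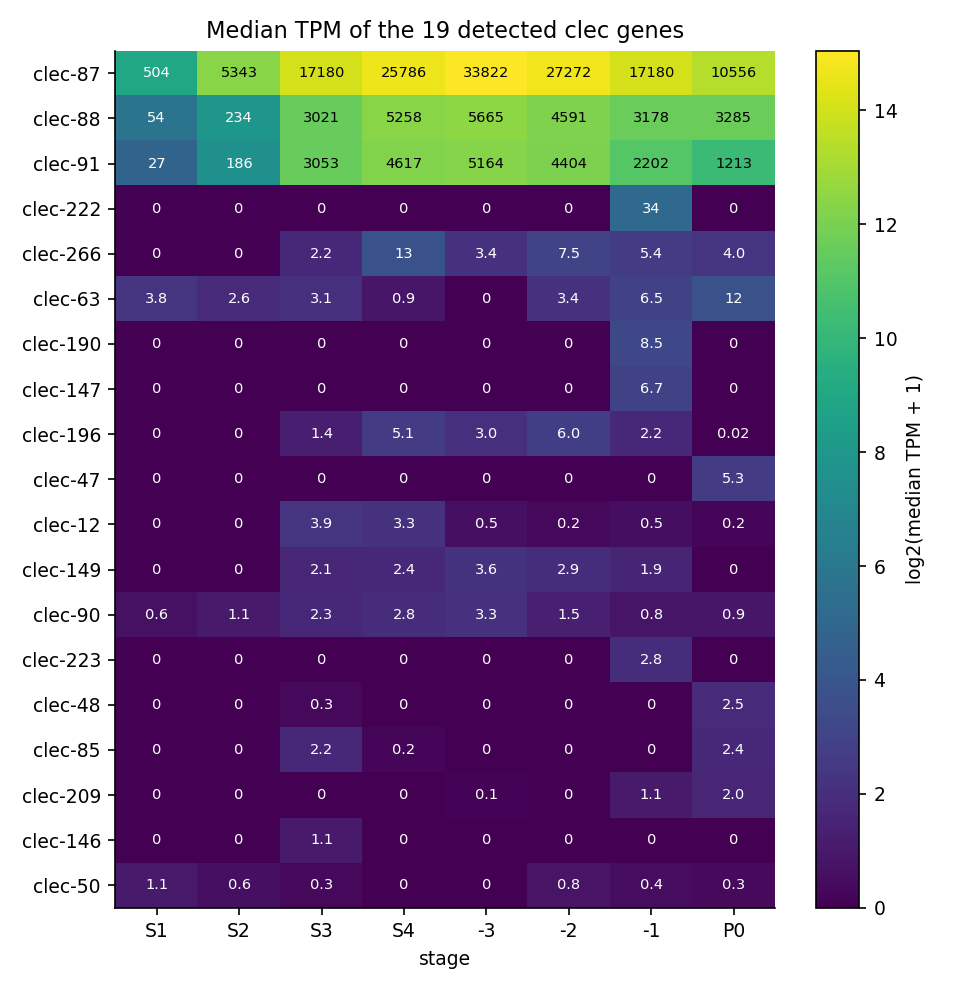
Median TPM of each of the 19 detected clec genes (rows, ordered by their highest stage median) in the 8 stages (columns, distal to proximal, then the zygote), with the color on a log2(median TPM + 1) scale. *clec-87*, *clec-88* and *clec-91* stood above all others from S1 to P0, and *clec-222*, *clec-223*, *clec-190* and *clec-147* had medians above 0 in -1 oocytes only.

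Across the 7 stages before fertilization, a joint test of the stage terms (edgeR quasi-likelihood, adjusted over all genes) could be made for 30 clec genes and called 26, beside 67.3% of all genes tested. Of the 16 members tested, 15 were called, and *clec-90* was not (adjusted p = 0.353). *clec-48*, *clec-146* and *clec-209* had too few reads to be tested. With the worm as a block, using only libraries whose worm also gave another of these stages, 16 of 33 clec genes were called, beside 53.2% of all genes. Without the 4 libraries of highest intestine share 18 of 22 were called, beside 66.3%.

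Nearly all clec mRNA came from *clec-87*, *clec-88* and *clec-91*. Their joint share of clec TPM had a median of at least 97.06% in every stage, with a lowest library of 53.8% in S1. The 19 members together made up a median of 0.0651% of gene TPM in S1, 0.569% in S2, 2.33% in S3, 3.60% in S4, 4.66% in -3 oocytes, 4.04% in -2 oocytes, 2.67% in -1 oocytes and 1.55% in P0. By these medians, clec mRNA was a very small part of the distal gonad and a sizeable part of the growing oocyte. Single libraries ranged widely, from 0.143% to 5.08% in S4, 0.505% to 5.69% in -3 oocytes and 0.394% to 5.94% in -2 oocytes, against 0.0143% to 0.309% in S1.

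*clec-87* (chromosome I, 10184462 to 10185520, minus strand) was the most abundant. In S1 its TPM ran from 63.96 over a median of 504.1 to 2974.9, in S2 from 368.0 over 5342.6 to 14476, in S3 from 497.4 over 17180 to 25433, and in S4 from 666.1 over 25786 to 36728. In -3 oocytes it ran from 3936.2 over 33822 to 41962, in -2 oocytes from 2213.4 over 27272 to 42559, in -1 oocytes from 4673.6 over 17180 to 26708, and in P0 from 904.2 over 10556 to 23483. The lowest P0 value came from a batch A zygote of unknown worm, which had 73449925 counted reads, the most of any library. The other batch A zygotes had 13311 to 23483 TPM. Median levels climbed to the -3 oocyte and were lower in each stage after it, with wide overlap between neighboring stages. Ranked among all genes of a library, *clec-87* had median ranks of 167, 46, 6, 3, 3, 3, 7 and 7.5 from S1 to P0. Its ranks ran from 1 to 161 in S4, from 1 to 44 in -3 oocytes and from 1 to 97 in -2 oocytes.

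*clec-88* (chromosome II, 6365722 to 6367002, plus strand) followed the same course at a lower level. Its lowest, median and highest TPM were 20.77, 54.14 and 146 in S1, then 42.19, 234.3 and 1519.1 in S2, 97.56, 3020.9 and 6985.1 in S3, and 700.1, 5257.6 and 6999.5 in S4. They were 821.8, 5664.7 and 9066.7 in -3 oocytes, 765.9, 4591.3 and 8412.4 in -2 oocytes, 628, 3177.5 and 5166.3 in -1 oocytes, and 540.5, 3285.4 and 5314.1 in P0. Its median changed most between S2 and S3. *clec-91* (chromosome I, 9126140 to 9127101, minus strand), for which no function is given here, had a lowest, median and highest TPM of 5.178, 27.26 and 178.3 in S1, of 23.09, 186.1 and 1284.8 in S2, of 79.61, 3053.2 and 5004.1 in S3, and of 53.61, 4616.9 and 6620.2 in S4. The values were 199.1, 5164.2 and 6197.8 in -3 oocytes, 295.3, 4404.1 and 8030.2 in -2 oocytes, 116.4, 2202.5 and 6053.8 in -1 oocytes, and 182.2, 1213.4 and 4138.3 in P0. All 3 genes had their highest stage median in the -3 oocyte, over both batches and in batch A alone. In batch B the highest median was in P0 for *clec-88* (2960.1, against 1079.1 in -3 oocytes) and for *clec-91* (537.4, against 241 in -3 oocytes).

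**Figure D2:**
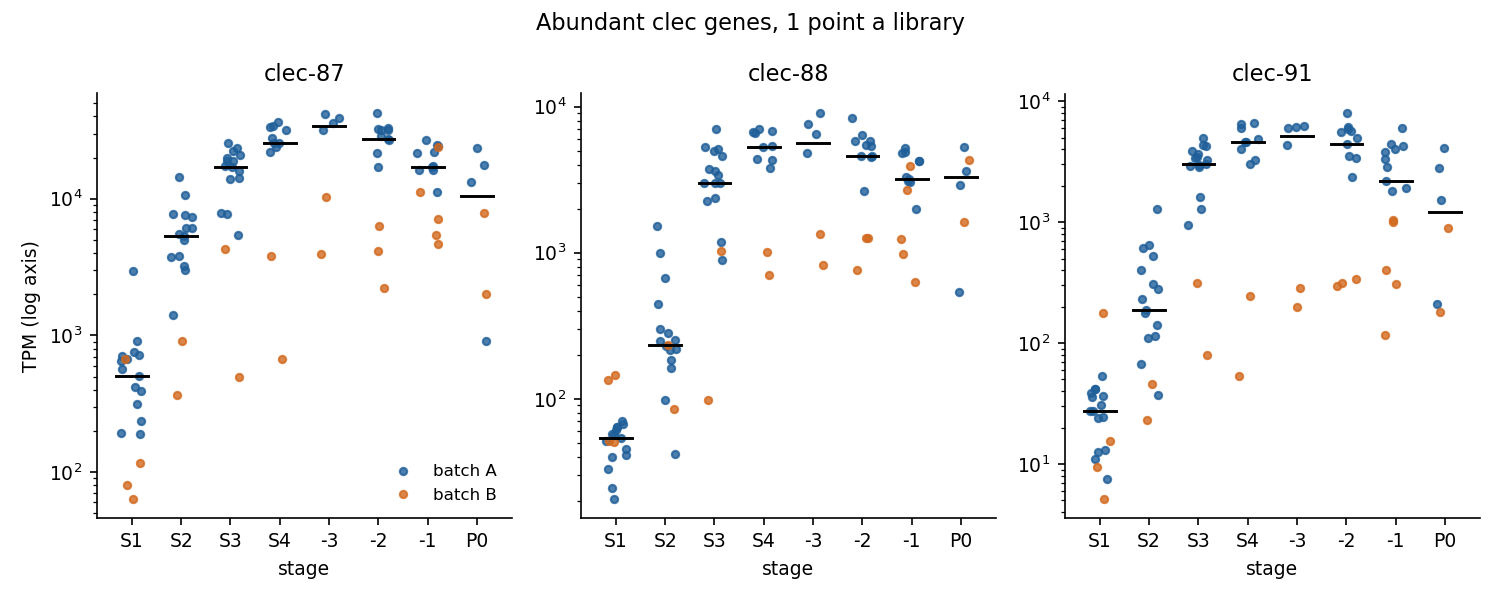
TPM (log axis) of *clec-87*, *clec-88* and *clec-91* by stage, 1 point a library, colored by batch, with the stage median as a bar. Medians climbed from S1 to the -3 oocyte, and batch B libraries lay below all of batch A in S4, -3 and -2 for each gene, with overlap in P0. For *clec-87* and *clec-91* that overlap came from 1 low batch A zygote.

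Between the distal zones, S2 against S1, 4 clec genes had enough reads to test and 3 passed an adjusted p under 0.05 with a fold above 1.5, all higher in S2. Of all genes, 14.6% were called in this comparison, 6.93% as higher. *clec-87* was 6.54-fold higher in S2 than in S1 (log2 fold change 2.71 ± 0.32 SE, adjusted p = 1.64e-07), *clec-88* 4.38-fold (2.13 ± 0.32, adjusted p = 1.06e-05) and *clec-91* 7.69-fold (2.94 ± 0.48, adjusted p = 4.00e-05). In worms that gave both zones, S2 was the higher in 11 of 11 for *clec-87* and in 10 of 11 for both *clec-88* and *clec-91*. The 3 calls held in batch A alone and with the worm as a block. Over all mapped libraries that of *clec-91* was lost (adjusted p = 0.0685). The median log2 fold change of the 4 genes was 2.42, against -0.04 for all genes tested.

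Between the loop and pachytene, S3 against S2, 4 of 6 clec genes tested were called, all higher in S3, beside 20.3% of all genes (15.7% higher). *clec-88* was 3.00-fold higher in S3 (log2 fold change 1.59 ± 0.39 SE, adjusted p = 0.00228) and *clec-91* 3.80-fold (1.93 ± 0.43, adjusted p = 0.000861). *clec-87* had a log2 fold change of 0.42 ± 0.36 with an adjusted p of 0.456. S3 exceeded S2 in 9 of 9 worms with both for *clec-88* and *clec-91*, and in 8 of 9 for *clec-87*. The other 2 called genes were *clec-149* and *clec-63*, described below with their groups.

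The calls of S3 against S2 depended on the covariates and on the libraries used. None of the 6 genes was called when the share of detected genes, a covariate of the fit, was counted at a TPM of 1 in place of 1 read (beside 11.2% of all genes), with log2 fold changes of 1.06 for *clec-88* and 1.44 for *clec-91*. The fit with the worm as a block was limited to the 9 worms that gave both stages. It called none of the 5 genes tested, beside 0.555% of all genes. Its log2 fold changes of 1.76 for *clec-88* (adjusted p = 0.204) and 2.75 for *clec-91* (adjusted p = 0.0873) were no smaller than those without the block. The effect of the block and that of fewer libraries cannot be told apart there. Without the detection covariate *clec-87* was called too (log2 fold change 0.99, adjusted p = 0.000943). The median log2 fold change was 1.76 for the 6 genes and 0.04 for all genes.

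Beyond S3, no neighboring comparison called any of the 3 genes in the edgeR fit. S4 against S3 gave log2 fold changes of 0.49 ± 0.25 for *clec-87* (adjusted p = 0.227), 0.52 ± 0.23 for *clec-88* (adjusted p = 0.158) and 0.26 ± 0.19 for *clec-91* (adjusted p = 0.441), with S4 the higher in 4 of 4 worms for each gene. DESeq2 called *clec-88* there (adjusted p = 0.0498). P0 against -1 oocytes gave -0.50 ± 0.43 for *clec-87* (adjusted p = 0.702), 0.23 ± 0.44 for *clec-88* (adjusted p = 0.902) and -0.36 ± 0.47 for *clec-91* (adjusted p = 0.832). Across the 7 stages each was called, with adjusted p of 1.57e-16 for *clec-87*, 8.08e-21 for *clec-88* and 7.17e-12 for *clec-91*.

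The batches differed in level for these genes. Batch A over batch B median ratios of *clec-87* were 5.72, 8.65, 7.22, 12.4, 5.25, 7.31, 2.74 and 3.16 from S1 to P0, and the batches did not overlap from S2 to the -2 oocyte. For *clec-91* the ratios were 2.19, 6.69, 16.5, 31.0, 25.0, 16.9, 9.01 and 4.05, with no overlap from S3 to the -1 oocyte. For *clec-88* they were 0.583, 1.57, 6.10, 6.26, 6.53, 4.31, 3.01 and 1.11. Within batch A alone, the medians of *clec-87* still ran 563.3, 5499.9, 17269, 27747, 37300, 30327, 19456 and 15492 from S1 to P0, and within batch B 98.55, 636, 2391.4, 2242.0, 7106.8, 4147.6, 7103.6 and 4910.2. The study names a modified Tang protocol as the main method of batch A and Smart-seq2 as that of batch B in one place, and Smart-seq2 as the method of most samples in another, although most used libraries are of batch A. The part of the library preparation in these levels was not tested.

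Sheath marker medians climbed from S1 to the -2 oocyte, and those of the 3 genes from S1 to the -3 oocyte. The median of the summed germline and oocyte markers also climbed from S1 to the -3 oocyte (16506 TPM) and was lower in each stage after it. That course did not hold for each of these markers, and *glh-1* had its highest median in S1 (163.7 TPM). Zygotes carried *clec-87* at a median of 10556 TPM with a summed sheath marker TPM of 5.338 to 1336.8. Of the sheath markers, *inx-8*, *inx-9*, *lim-7*, *tni-1*, *myo-3* and *let-23* had a median of 0 TPM in P0. The others had P0 medians of 0.0961 (*itr-1*), 0.118 (*unc-54*), 0.396 (*unc-27*), 1.037 (*mup-2*), 9.394 (*perm-4*), 9.631 (*pat-10*) and 17.49 (*perm-2*). In -2 oocytes, where the sheath sum had a median of 41520 TPM, *perm-2* and *perm-4* had medians of 25661 and 12326. The 4 batch A -3 oocytes had sheath sums of 811.7 (Worm27), 3879.1 (Worm33), 23154 (Worm20) and 43518 (Worm28), with *clec-87* at 35754, 38845, 41962 and 31890 TPM in that order. The batch B -3 oocytes had sheath sums of 26170 (WormJ) and 160275 (WormH), with *clec-87* at 3936.2 and 10277 TPM. The part of sheath RNA in these levels was not tested.

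Set beside other families by symbol, 10 of 12 galectin (lec) genes, 5 of 13 chondroitin proteoglycan (cpg) genes, 5 of 16 lysozyme (lys and ilys) genes and 11 of 31 saposin-like (spp) genes met the same detection rule. In S2 against S1, 3 of 5 cpg genes were called, all higher in S2, as were 1 of 3 spp, 0 of 5 lec (1 at an unadjusted p under 0.05, 1 by DESeq2) and 0 of 2 lys genes (0 and 0). In S3 against S2, 2 of 5 cpg, 2 of 3 spp, 1 of 7 lec and 1 of 2 lys genes were called, each higher in S3. Across the 7 stages 5 of 5 cpg, 12 of 13 spp, 9 of 11 lec and 6 of 9 lys genes were called.

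A second group, *clec-149*, *clec-266*, *clec-196* and *clec-12*, was at or near 0 in the distal gonad and was seen from the loop on. How the batches differed varied by gene and stage. These genes were grouped by that course, so that S3 against S2 describes them and is not independent of the choice. *clec-196* reached 1 TPM in no batch B library of any stage (at most 0.1847), *clec-266* was at 0 in both batch B S3 libraries and all 3 batch B -2 oocytes, and *clec-149* stayed under 1 TPM in all 5 batch B -1 oocytes (at most 0.3146). The other way round, the batch B median of *clec-149* in S4 was 3.408, against 1.81 in batch A. That of *clec-12* in -3 oocytes was 3.406, against 0.2486 in batch A. Roles for these 4 genes are not given here. Their highest stage medians were between 3.557 and 12.7 TPM, far under those of the 3 abundant genes. *clec-149* (chromosome III, 823222 to 826408, plus strand) had a highest TPM of 0.23 in S1 and 0.8218 in S2, both with medians of 0, then a median of 2.052 with a highest of 4.62 in S3, where 14 of 17 libraries reached 1 TPM. Its medians were 2.394 in S4, 3.557 in -3, 2.887 in -2 and 1.943 in -1 oocytes, with a highest value of 32.02 in a -2 oocyte. In P0 the median was 0 and the highest 0.1147, so that none of the 6 zygotes reached 1 TPM.

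*clec-149* was 10.4-fold higher in S3 than in S2 (log2 fold change 3.38 ± 0.86 SE, adjusted p = 0.00360), and S3 was the higher in 8 of 9 worms. The call was lost with detection counted at a TPM of 1 (2.86, adjusted p = 0.129). P0 against -1 oocytes gave a log2 fold change of -1.39 ± 2.15 (adjusted p = 0.867). In batch A alone (adjusted p = 0.00320), and without the 2 batch B zygotes (adjusted p = 0.0183), *clec-149* was called as lower in P0.

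*clec-266* (chromosome X, 6617393 to 6622915, minus strand) was the only member on X. It was at 0 in all 19 S1 libraries, and its lowest, median and highest TPM were 0, 0 and 2.118 in S2, then 0, 2.195 and 38.15 in S3 and 0.5274, 12.7 and 55.57 in S4. It was at 0.1713, 3.397 and 23.35 in -3 oocytes, at 0, 7.482 and 59.84 in -2 oocytes, at 0, 5.444 and 33.61 in -1 oocytes, and at 0, 3.954 and 11.37 in P0. In S4, 10 of 11 libraries reached 1 TPM. S4 against S3 gave a log2 fold change of 1.65 ± 0.83 (adjusted p = 0.226), with S4 the higher in 4 of 4 worms. It was called across the 7 stages (adjusted p = 1.01e-08).

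*clec-196* (chromosome IV, 17276956 to 17277748, plus strand) was at 0 in every S1 library and had a median of 0 and a highest TPM of 3.348 in S2. Its lowest was 0 in each later stage, and its median and highest TPM were 1.365 and 10.15 in S3, 5.139 and 16.61 in S4, 3.004 and 7.995 in -3, 5.993 and 18.91 in -2 and 2.221 and 16.92 in -1 oocytes, and 0.0235 and 10.13 in P0. *clec-12* (chromosome I, 12476653 to 12478594, minus strand) was highest earlier. Its lowest was also 0 throughout, and its median and highest TPM were 0 and 0.1337 in S1, 0 and 1.032 in S2, 3.895 and 11.44 in S3, 3.338 and 19.94 in S4, 0.538 and 6.233 in -3, 0.240 and 27.37 in -2 and 0.471 and 3.945 in -1 oocytes, and 0.173 and 2.496 in P0.

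*clec-12* and *clec-196* were called across the 7 stages (adjusted p = 1.28e-06 and 1.31e-05) and in no neighboring comparison. *clec-12* was tested only in S4 against S3 (log2 fold change 0.50 ± 0.86, adjusted p = 0.780) and in -3 oocytes against S4 (-2.24 ± 1.49, adjusted p = 0.575). *clec-196* was tested only in -2 against -3 oocytes (1.15 ± 0.89, adjusted p = 0.991).

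**Figure D3:**
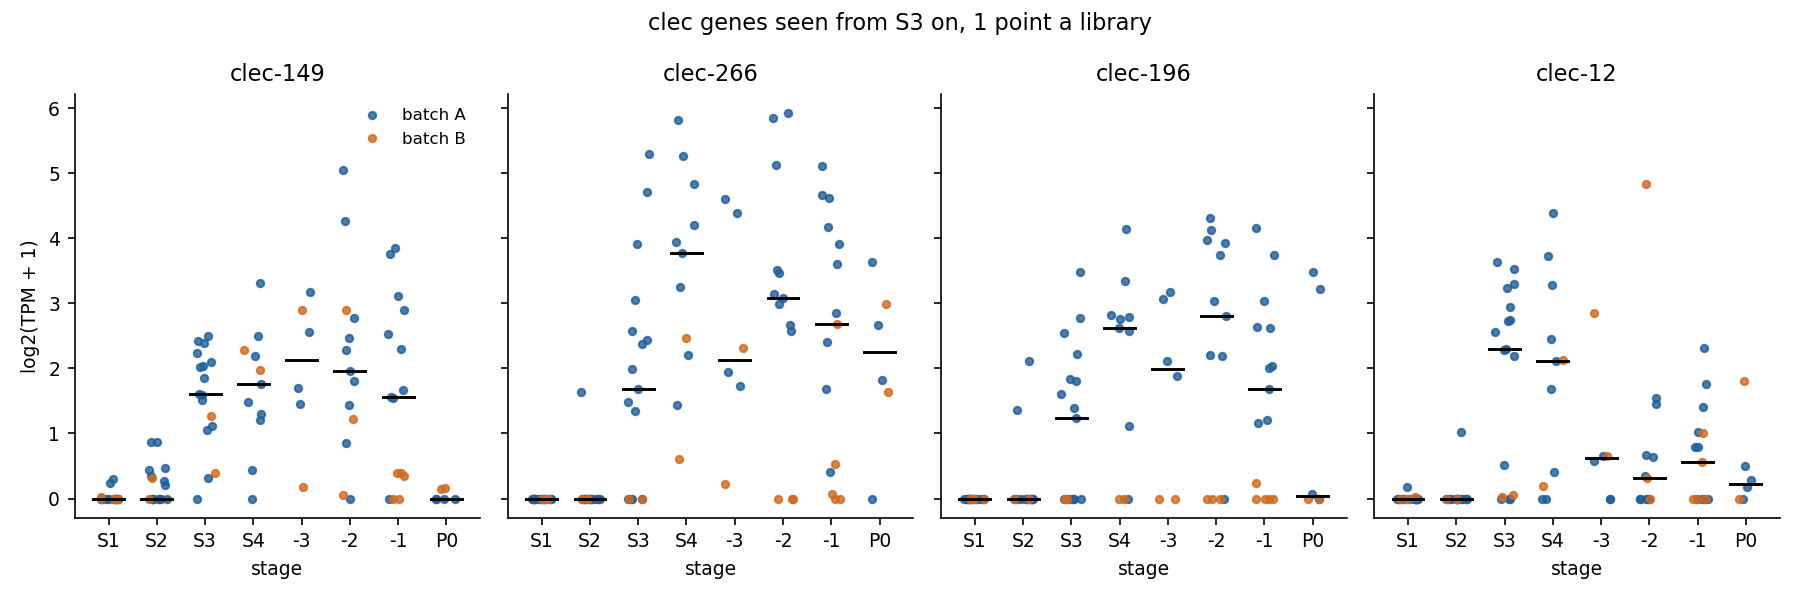
log2(TPM + 1) of *clec-149*, *clec-266*, *clec-196* and *clec-12* by stage, 1 point a library, colored by batch, with the stage median as a bar. All 4 lay at or near 0 in S1 and S2 and had medians above 0 in S3 and S4, and *clec-149* was back near 0 in P0, where its highest value was 0.1147 TPM.

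Oocyte growth from S4 to the -2 oocyte brought no call among the clec genes. In -3 oocytes against S4, edgeR called 0 of 7 (1 at an unadjusted p under 0.05 and 0 by DESeq2), beside 1.51% of all genes (0.112% higher and 1.4% lower). In -2 against -3 oocytes it called 0 of 9 (3 at an unadjusted p under 0.05 and 0 by DESeq2), beside 0% of all genes. The gene at an unadjusted p under 0.05 in -3 oocytes against S4 was *clec-87* (log2 fold change 0.59 ± 0.27, adjusted p = 0.397), and the 3 in -2 against -3 oocytes were *clec-63* (4.64 ± 1.26), *clec-50* (3.15 ± 1.47) and *clec-90* (-1.30 ± 0.55), each with an adjusted p of 0.991.

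The next group, *clec-222*, *clec-223*, *clec-190* and *clec-147*, was detected by the rule in -1 oocytes alone. The group was formed by that pattern, so that comparisons with -1 oocytes describe it and are not independent of the choice. *clec-222* (chromosome V, 11271351 to 11272467, plus strand) ran from 0 over a median of 33.89 to 873.5 TPM in -1 oocytes, where 12 of 15 libraries reached 1 TPM. Its median was 0 in each of the other stages, and its highest TPM was 1.012 in S1, 2.087 in S2, 2.62 in S3, 8.836 in S4, 0.3068 in -3 oocytes, 10.96 in -2 oocytes and 3.702 in P0. *clec-190* (chromosome IV, 15124931 to 15126121, minus strand) ran from 0 over 8.522 to 2576.1 TPM in -1 oocytes, with a highest of 6.82 in S4, 2.398 in -2 oocytes and 1.259 in P0. Both genes thus spanned a very wide range among -1 oocytes.

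*clec-147* (chromosome II, 14535926 to 14537828, minus strand) ran from 0 over 6.684 to 38.71 TPM in -1 oocytes, again with 12 of 15 at 1 TPM or more, and had a highest of 1.767 in -2 oocytes and 0 in all zygotes. *clec-223*, the neighbor of *clec-222*, reached 107.8 TPM in -1 oocytes (median 2.842, 10 of 15 at 1 TPM), 0.5459 in -2 oocytes and 0 in every zygote. All 4 genes were higher in the -1 than in the -2 oocyte in 6 of the 8 worms that gave both, and lower in 0 of 8.

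In -1 against -2 oocytes, edgeR called 0 of 6 clec genes tested (0 at an unadjusted p under 0.05 and 0 by DESeq2), beside 0.172% of all genes. The 4 genes were not among those 6. The count filter asked for 10 reads, at a library of median depth, in at least 13 of the 28 libraries, which 9 reached for *clec-147*, 9 for *clec-190*, 12 for *clec-222* and 10 for *clec-223*. Without that filter all 4 were called as higher in -1 oocytes, beside 0.903% of all genes called as higher, with adjusted p of 0.00780 (*clec-147*) to 0.0348 (*clec-190*). *clec-222* was also called in batch A alone (adjusted p = 0.0436) and over all mapped libraries (adjusted p = 0.0374). In the 28 fits that each left out 1 library, it passed the count filter in 12 and was called in 1, that without the -2 oocyte of Worm33 (adjusted p = 0.0429).

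In P0 against -1 oocytes, 1 of 11 clec genes tested was called, as lower in P0, beside 5.82% of all genes (5.68% lower). It was *clec-147* (adjusted p = 0.00902), with 0 reads in all 6 zygotes against 0 to 690 reads in -1 oocytes (13 of 15 with reads). Against a floor of 3 reads in each zygote, its mean was at least 19.5-fold lower in P0, and at least 12.4-fold lower without the -1 oocyte of WormG, which held the highest level. The call held in each of the 21 fits that left out 1 library and was lost without the 2 batch B zygotes and over all mapped libraries. *clec-223* had 0 reads in all 6 zygotes too, with an adjusted p of 0.0894. By the same floor its mean was at least 230-fold lower in P0, at least 127-fold lower without WormG, and its median over -1 oocytes gave at least 27.9-fold. *clec-222* had reads in 2 of 6 zygotes (at most 26) against 12 of 15 -1 oocytes (at most 13725), with an adjusted p of 0.0580. *clec-190* had reads in 1 of 6 zygotes (3 reads) against 12 of 15 -1 oocytes (at most 5442), with an adjusted p of 0.123. Leaving out the -1 oocyte of WormC, WormE, WormF or Worm20 brought *clec-222* under the threshold (adjusted p = 0.0327, 0.0346, 0.0465 and 0.0495), and without that of WormG its adjusted p was 0.297. DESeq2 called all 4, and called 659 of all genes, where edgeR called 440. Without the detection covariate, edgeR called *clec-147*, *clec-222* and *clec-223*. Each of the 4 was called across the 7 stages (adjusted p of 3.17e-21 for *clec-223* to 7.49e-17 for *clec-147*).

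The -1 oocytes with little or none of the 4 genes were those with the lowest summed TPM of 6 spermatheca markers. The spermatheca is the chamber that the -1 oocyte touches and enters at ovulation. The summed TPM of its 6 markers had a median of 14213 in -1 oocytes, and of 45.52 (P0) to 102.6 (S3) in the other stages. In those other stages *fln-1* was a large part of the sum, with medians of 45.31 in P0 and 95.18 in S3. In the 3 -1 oocytes with the lowest marker sums, 27.84, 161.6 and 317.3, the TPM summed over the 4 clec genes was 0, 0 and 0.7402. The other 12 had marker sums of 2779.4 to 45638 and 4-gene sums of 7.071 to 3091.3. The 2 largest 4-gene sums, 3091.3 (Worm23, 2576.1 of it *clec-190*) and 1952.8 (WormG, 873.5 of it *clec-222*), stood beside the 2 largest marker sums, 44562 and 45638. Among the rest the order differed. Worm30 and Worm28 had marker sums of 33765 and 33502 with 4-gene sums of 42.16 and 27.25, and Worm32 and Worm21 had marker sums of 10903 and 10170 with 4-gene sums of 366.3 and 183. A -2 oocyte (Worm33) with a marker sum of 3212.4 had a 4-gene sum of 2.026.

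In the -1 oocytes of high marker sum, most of that sum was *ule-3* and *ule-5*. For these 2 genes the study drew on earlier in situ evidence of a spermathecal source after noticing their jump in -1 oocytes of these samples. They are thus not independent of the -1 stage. *sth-1*, a defining spermatheca gene, was at 0 in the 3 oocytes of lowest marker sum and also in those of WormD and WormF. It ran from 5.678 to 122.7 TPM in the other 10. *fkh-6* was at 0.4004 to 1.776 TPM in the 3 oocytes of lowest marker sum and at 1.196 to 19.7 in the rest. *fln-1* and *spv-1* did not follow the 4 clec genes. *fln-1* was at 80.82 TPM in Worm20, with 0 TPM of the 4 genes, and at 2.935 in WormG. *spv-1* was at 5.052 TPM in Worm20, 5.201 in WormG and 0.6433 in Worm23. The study also lists an entry printed as clcc-222, taken here as *clec-222*, among genes it proposes to come from the spermatheca. That list was drawn from these samples, by a rise from -2 to -1 oocytes and a drop to zygotes. Most listed genes with in situ images showed signal in that region. In the edgeR fits here *clec-222* was not tested in the first comparison and was not called in the second (adjusted p = 0.0580). The part of spermathecal RNA in the -1 levels of the 4 clec genes was not tested.

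**Figure D4:**
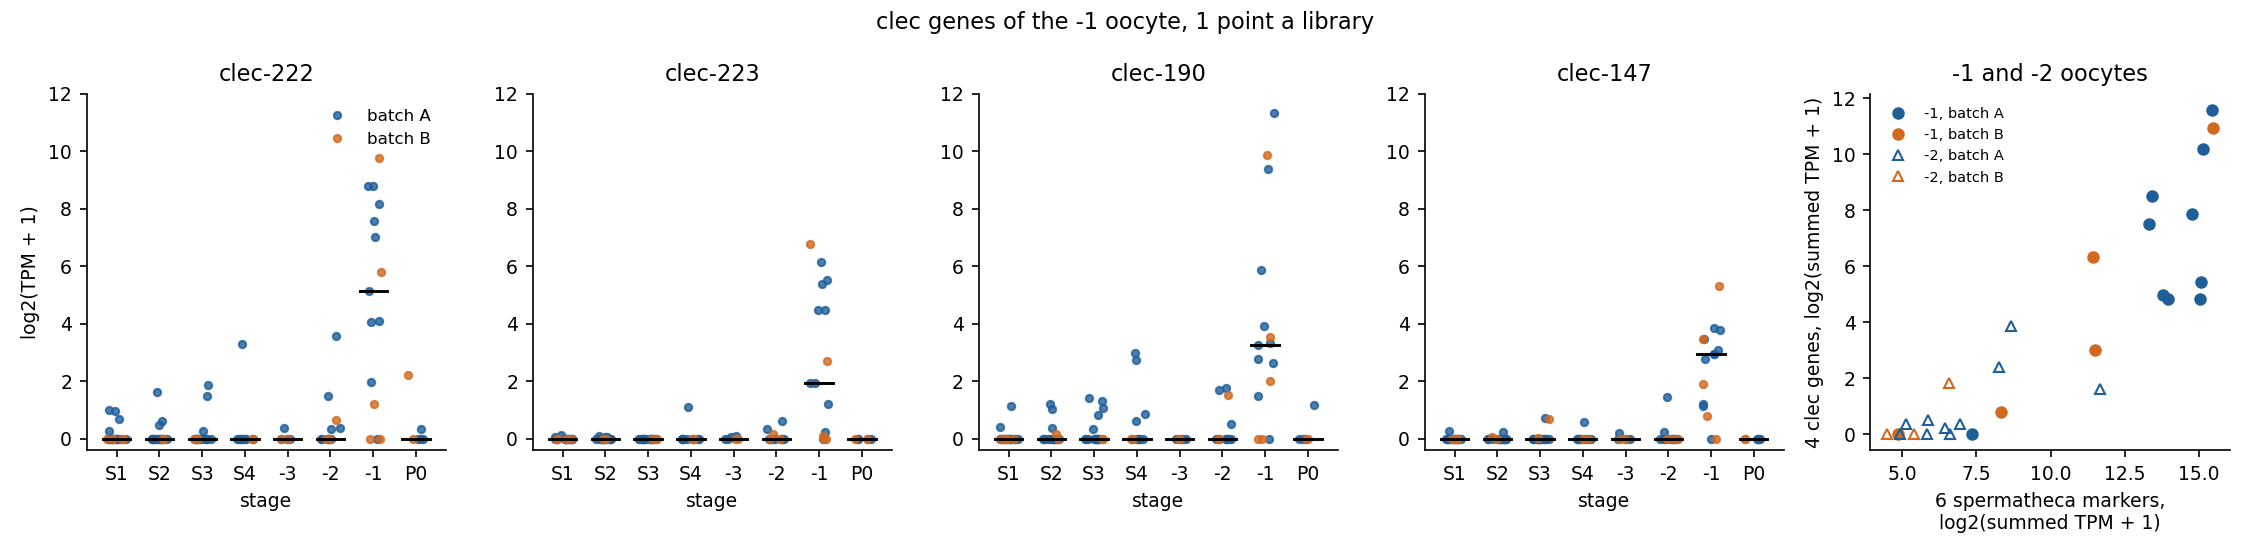
First 4 panels: log2(TPM + 1) of *clec-222*, *clec-223*, *clec-190* and *clec-147* by stage, 1 point a library, colored by batch, with the stage median as a bar. Last panel: summed TPM of these 4 genes against the summed TPM of 6 spermatheca markers (both log2 of the sum + 1) in -1 oocytes (filled circles) and -2 oocytes (open triangles). The 3 -1 oocytes with the lowest marker sums (27.84 to 317.3 TPM) had at most 0.7402 TPM of the 4 clec genes.

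*clec-63* had no clear course along the gonad. Its neighbors *clec-62* and *clec-64* on chromosome II (*clec-63* at 12895638 to 12897446, plus strand) did not pass the detection rule. Its lowest, median and highest TPM were 0, 3.764 and 143.7 in S1, then 0, 2.6 and 96.75 in S2, 0, 3.092 and 146 in S3 and 0, 0.851 and 4.851 in S4. In -3 oocytes they were 0, 0 and 5.682, in -2 oocytes 0, 3.379 and 69.64, in -1 oocytes 0.2246, 6.46 and 133.6, and in P0 0.0131, 12.07 and 185.9. The medians of S4 and -3 were the lowest, and in each other stage the highest library was far above the median.

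S3 against S2 gave a log2 fold change of 3.93 ± 1.19 for *clec-63* (adjusted p = 0.0151), with S3 the higher in 7 of 9 worms. The call rested on the library choice and the covariate. The log2 fold change was 2.61 (adjusted p = 0.172) without the S3 library of Worm32, 0.69 without the detection covariate, 0.15 with the worm as a block, and -1.50 over all mapped libraries. S4 against S3 was the 1 call of 8 clec genes tested in that comparison, beside 7.88% of all genes (3.86% higher and 4.02% lower). *clec-63* was 16.4-fold lower in S4 (log2 fold change -4.03 ± 0.91, adjusted p = 0.00771), and lower in 4 of 4 worms. With the worm as a block, in those 4 worms alone, 0 of 7 clec genes were called (*clec-63* could not be tested). Over all mapped libraries the log2 fold change of *clec-63* was -0.55 (adjusted p = 0.818).

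*clec-50*, *clec-63* and *clec-209* went with the intestine share of a library, the percentage of TPM in genes that the study assigned to the intestine. That share was over 1% in 4 used libraries, at 1.16% in a zygote (Worm2), 2.42% and 2.20% in -1 oocytes of Worm25 and Worm32, and 2.67% in S3 of Worm32, and between 0.00288% and 0.516% in the other 100. *clec-50* (chromosome V, 19752399 to 19755368, minus strand) had 134.1, 301.4, 119.4 and 127 TPM in these 4 libraries, and at most 37.21 TPM in the other 100, with a median of 0.331. *clec-63* had 185.9, 89.94, 133.6 and 146 TPM there, against a median of 2.663 and a highest value of 143.7 in the others. The summed TPM of 12 intestine markers was 1067.3 to 3308.9 in the 4 libraries and 0 to 831.8 in the others. Of these markers, the yolk genes *vit-2*, *vit-5* and *vit-6* were higher in each of the 4 libraries than in any of the other 100, *vit-3* and *vit-4* in 3 of the 4, *elt-2* in 2, *vit-1* and *elt-7* in 1, and *ges-1*, *ifb-2*, *act-5* and *asp-1* in 0. The study's intestine gene list was not used here and could hold clec genes, and the part of intestinal RNA in these levels was not tested.

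*clec-209* had 7.579, 1088.7, 188.9 and 187.4 TPM in the 4 libraries, against at most 62.25 TPM elsewhere. Only 9 reads were counted for it over the 104 libraries. Its symbol is carried by 2 gene IDs of equal length on chromosome V (2459637 to 2460893 for the ID kept here, 2351676 to 2352932 for the other), so its level is uncertain and it was not tested. *clec-50* was tested in -2 against -3 oocytes only, as given above, and was called across the 7 stages (adjusted p = 0.00535), a call lost with the worm as a block (adjusted p = 0.420).

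**Figure D5:**
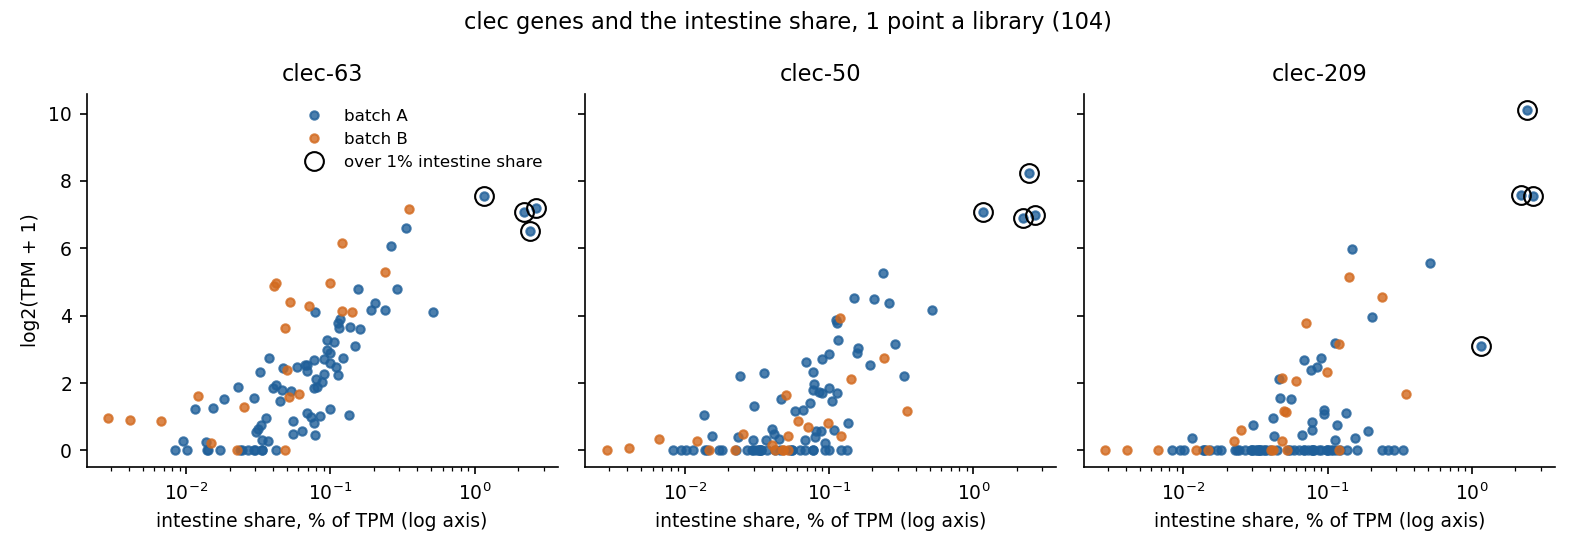
log2(TPM + 1) of *clec-63*, *clec-50* and *clec-209* against the intestine share of TPM (percent, log axis) in the 104 used libraries, 1 point each, colored by batch. The 4 ringed libraries have a share over 1% and hold *clec-50* at 119.4 to 301.4 TPM, above all others.

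Of the remaining members, *clec-47* (chromosome V, 15175759 to 15176324, plus strand) had a median above 0 in P0 only, at 5.27 TPM (0 to 33.62), with 3 of 6 zygotes at 0. Its highest values elsewhere were 25.5 in S1, 83.23 in S2, 33.23 in S3, 19.13 in S4, 0.92 in -3, 52.27 in -2 and 31.41 in -1 oocytes, each with a median of 0. *clec-48* was alike in P0 (median 2.491, 0 to 40.4, 3 of 6 at 0) and reached at most 5.663 TPM elsewhere. Both genes met the detection rule only through the same 3 zygotes, that of Worm2 with its intestine share of 1.16% (33.62 TPM of *clec-47* and 40.4 of *clec-48*) and the 2 of batch B whose stage is unknown in the quality table (22.76 and 10.54 TPM of *clec-47*, 6.546 and 4.982 of *clec-48*). *clec-85* was at 1 TPM or more in 11 of 17 S3 libraries (median 2.235) and 4 of 6 zygotes (median 2.37), against at most 36.36% of the libraries of any other stage. Of those 4 zygotes, 2 are the batch B ones of unknown stage (8.933 and 2.315 TPM of *clec-85*), and another is that of Worm2 (3.697 TPM). The highest *clec-85* value, 37.31 TPM, was in S3 of Worm32, with an intestine share of 2.67%. With all libraries *clec-85* did not pass the count filter in P0 against -1 oocytes. It passed in 3 of 21 fits that left out 1 library, and edgeR called it there as higher in P0. These left out the zygote of Worm4 (0 TPM, adjusted p = 0.0171), Worm9 (2.425 TPM, 0.0440) or a batch A worm of unknown number (0 TPM, 0.0143). The calls thus depend on which zygote was removed and are not independent of that choice. *clec-146* passed only in S3 (median 1.096, highest 14.64). *clec-90* was low in every stage, with medians of 0.622 to 3.342 TPM and a highest value of 5.542, and reached 1 TPM in batch A alone (at most 0.4428 TPM in batch B). With the worm as a block, the calls of *clec-47*, *clec-63* and *clec-85* across the 7 stages were lost, with adjusted p of 0.798, 0.122 and 0.0797.

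Several members overlap another gene, and library kits of this kind do not mark the strand, so reads in the overlap cannot be assigned with certainty. On the opposite strand these are *clec-87* with *iars-2*, *clec-91* with *ZK858.8*, *clec-147* with *C04H5.1* and *clec-266* with *kqt-1*, and on the same strand *clec-88* with *ctsa-4.1* and *clec-90* with *glo-2*. *clec-85* overlaps a gene on each strand.

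Another 7 clec genes, *clec-73*, *clec-79*, *clec-117*, *clec-119*, *clec-123*, *clec-151* and *clec-260*, were left out of the tests because their TPM tracked that of major sperm protein (msp) genes. None of them was a member. The -1 oocyte of Worm25, with the highest sperm share (2.06% of TPM), held 1.466, 3.954, 7.45, 1.811, 7.545, 4.804 and 0 TPM of the 7 in that order. For 5 of the 7 this was the highest value of the 104 libraries, and in the others none of the 7 went over 2.634 TPM.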

How the data were processed

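Single gonad segments, oocytes and zygotes were profiled by RNA-seq, each as its own library. The deposited counts are reads per gene that the authors obtained with Trim Galore, HISAT2 against WBcel235 and HTSeq at default settings on WormBase WS291, with no normalization. TPM values, also deposited by gene, are Salmon estimates. The quality table deposited by the authors gives batch, use and fractions of TPM in sperm and intestine genes, shown here as percent.

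Stages came from the sample labels and symbols from the tables paired with WBGene IDs (44113 of the gene IDs had one). Positions are those of the WBcel235 annotation. The members and lists were chosen with earlier results of these data known. Every detected clec gene is named, and values by stage are given for the 12 with the highest stage median TPM. For some of these, among them *clec-147* and *clec-190*, not every stage or value is printed. Sequences of the members were not used here.

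Before testing, 756 genes were left out (36 mitochondrial, 20 rRNA, and 700 with a TPM correlation above 0.99 with an msp gene, the msp genes included). Neighboring stages were compared two-sided with edgeR 4.0.16 in R 4.3.3 (filterByExpr at a minimum count of 10, TMM, robust quasi-likelihood test). Covariates were the batch and how many of the kept genes had at least 1 read, as a share, following the covariates of the study, which used another tool. A call needed a fold above 1.5 and an adjusted p (Benjamini-Hochberg, over all genes tested) under 0.05. Log2 fold changes are later over earlier stage, with SE as the absolute value divided by the square root of F. The 6 stage terms of S1 to -1 were tested together in a further fit. The code was tested on simulated data. Tables and figures used Python 3.11.15, pandas 2.3.3, numpy 2.4.6, scipy 1.17.1 and matplotlib 3.10.9.

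Alternatives were DESeq2 1.42.0, median-of-ratios scaling, no detection covariate, no count filter, no genes left out, all 135 mapped libraries, batch A alone, the worm as a block, each library left out (where a stage of 6 to 15 was involved) and other detection limits. Chosen after seeing the data were a detection share at a TPM of 1, leaving out 4 libraries with an intestine share over 1%, leaving out the 2 batch B zygotes, and TPM rescaled without spike-ins. The worm pairs libraries because pieces came from the same animal. Fits with the worm as a block kept only libraries whose worm also gave another of the compared stages. In them the worm took the place of the batch, so they held fewer libraries than the main fits. The median correlation of deviations within a worm was 0.178 to 0.377 over comparisons, against -0.0343 to 0.00522 for other worms of the batch. No worm gave both a used -1 oocyte and a used zygote.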

Additional observations from a re-analysis of the deposited data

Results flagged for a closer look

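Among stages of 6 libraries, 18 sets of 6 values were examined for a single library far from the rest, and 6 had one. Dixon's limit is set for 1 of 20 sets of normally spread values, whereas these are TPM with many values at 0. The share expected by chance is thus not known here, and some of these may be chance. *clec-222* stood at 3.702 TPM in 1 batch B zygote, where the other zygotes had at most 0.2722, and *clec-12* stood at 2.496 TPM in the same zygote, with at most 0.4084 in the others. *clec-63* was at 185.9 TPM in the zygote of Worm2, against at most 30.51 in the others, and *clec-190* was at 1.259 TPM there and at 0 in the other 5. That zygote is 1 of the 4 libraries with an intestine share over 1%. In -3 oocytes, *clec-63* reached 5.682 TPM in Worm20 with at most 0.948 in the others, and *clec-12* reached 6.233 TPM in WormJ with at most 0.579 in the others.

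The 9 early embryo libraries, which no comparison used, held the 3 abundant genes in every library. Their median TPM was 859.3 for *clec-87* (1.045 to 5236.9), 835.6 for *clec-88* (66.39 to 3013.8) and 288.2 for *clec-91* (56.06 to 1717.2), at 5561788 to 22088257 counted reads. *clec-266* reached 203 TPM, *clec-196* 17.88 and *clec-90* 9.466 in single embryos, *clec-12* 0.0560, and the other 12 members were at 0 in all 9.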

How the results depend on the processing

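The smallest groups were 6 -3 oocytes and 6 zygotes, 4 of them in batch A. The count filter asked for reads in at least 13 libraries in -1 against -2 oocytes and in 6 in P0 against -1 oocytes, so that the 4 genes of the -1 oocyte were tested in the second only. The cause of the changes below was not tested.

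Without the count filter the clec genes called were 14 of 102 in S2 against S1 (12.9% of all genes), 32 of 123 in S3 against S2 (19.5%), 14 of 120 in S4 against S3 (7.97%), 5 of 112 in -1 against -2 (1.24%), 3 of 107 in P0 against -1 (2.99%) and 92 of 159 over the 7 stages (57.8%), where 3, 4, 1, 0, 1 and 26 were called with it. The worm as a block gave 0 in S3 against S2, 0 in S4 against S3 and 16 over the 7 stages, and changed no other count by this much. Detection at a TPM of 1 gave 0 in S3 against S2. DESeq2 gave 2 in S4 against S3 and 4 in P0 against -1. Over all genes it called 948 and 659 there, against 557 of 7071 and 440 of 7555 by edgeR. Shares of all genes are not given for the settings named next, so their counts cannot be read as a result about clec genes. All mapped libraries gave 0 in S4 against S3, 1 in -1 against -2 and 3 in P0 against -1, batch A alone gave 1 in -1 against -2 and 3 in P0 against -1, and leaving out the detection covariate gave 3 in P0 against -1. For single genes, 274 values kept direction and side of the threshold, 10 gained a call, 17 lost one, and 1 reversed: *clec-63* in S3 against S2, at -1.50 over all mapped libraries.

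Leaving out 1 library at a time gave 0 to 0 calls in -3 against S4 (17 fits), 0 to 1 in -1 against -2 (28 fits) and 1 to 2 in P0 against -1 (21 fits). For these fits, too, shares of all genes are not given. The number of detected clec genes was 26 at a TPM of 0.5 and with 1 read, 10 at a TPM of 5, 10 with 75% of the libraries required, 15 at 10 reads, 15 over all mapped libraries, 20 in batch A and 19 after rescaling, against 19.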
